A study of Mus musculus with 70 samples.

Results

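Gene expression in the nucleus accumbens (ACB) was compared with gene expression in cerebral cortex at the level of genes. All 3 ACB libraries and all 9 cortical libraries of the series entered, 12 of its 70 libraries. The cortical libraries came from the anterior cingulate area (ACA), the frontal pole (FRP) and the entorhinal area (ENT), with 3 libraries each, and each of these regions carried the same weight in the cortical mean. The comparison sets a telencephalic tissue made mainly of inhibitory projection neurons against tissue made mainly of excitatory ones.

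The nucleus accumbens is the ventral part of the striatum, a brain region known for its part in reward and food intake. Nearly all striatal neurons are GABAergic spiny projection neurons, which receive glutamate from cortex and dopamine from the midbrain. They are divided into direct-pathway neurons, which carry the dopamine receptor DRD1 and the peptides substance P and dynorphin, and indirect-pathway neurons, which carry DRD2, the adenosine receptor ADORA2A and enkephalin. In cortex, the projection neurons are glutamatergic and load their vesicles with the transporter encoded by Slc17a7, and GABA is released by a smaller group of interneurons.

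All 12 libraries came from untreated C57BL/6 mice at P56 (postnatal day 56), which were male and of the substrain C57BL/6NTac per the study's methods. The tissue was punched from frozen coronal sections, and a library held punches pooled from several mice, except 1 ACB library that came from 1 mouse. The labels do not say which ACB library that was, nor do they assign libraries to the batches in which tissue was collected. Expression is given in TPM, a measure relative to the total of the library and corrected for transcript length, and the differences are between means of log2(TPM + 0.5), ACB minus cortex. They therefore understate the change of genes near 0. Nothing in the labels says that the replicates of a region came from separate groups of animals, so p-values measure the spread between these libraries. By the methods, fewer adult mice were used than the pools would need without sharing, so mice gave tissue to several libraries. The labels do not tie libraries to mice, and the fit treats libraries as independent. In such bulk tissue, fewer cells of a type and less RNA per cell cannot be told apart.

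The 12 libraries held 15173723 to 20647884 estimated counts each, with a median of 18879106 in ACB and of 19052434 in cortex. Mitochondrial transcripts took 5.70% to 13.5% of the TPM. Pearson's r of log2(TPM + 1) across genes lay between 0.9888 and 0.9911 for pairs of ACB libraries and between 0.9679 and 0.9804 for an ACB and a cortical library.

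Several libraries stood apart from others of their region. Slc17a7 was at 23.9, 263 and 297 TPM in ACB replicates 1, 2 and 3, or 1.86%, 20.5% and 23.1% of the cortical mean. The same step was seen for Neurod6, a transcription factor of cortical projection neurons, with 2.06, 17.0 and 18.2 TPM. Tbr1, which marks deep-layer cortical neurons, was at 4.32, 31.1 and 32.9 TPM. ACB replicate 1 was thus far below the other two for these genes, and for Top2a, a gene of dividing cells, with 1.78, 9.67 and 9.44 TPM. This did not hold for every gene of cortical neurons. ACB replicate 1 was the lowest ACB library for 14 of 22 pallial factors, 2 of 6 glutamatergic genes and 5 of 16 layer markers in the lists below, and the highest for 4, 3 and 6 of them. In cortex, FRP replicate 3 held 21.9 TPM of Eomes (named, like Th, Calb2, Tbr1, Meis2, Top2a and Mbp below, after its values were seen), which marks projection neurons of the adult olfactory bulb, against 2.02 and 3.58 TPM in FRP replicates 1 and 2 and at most 0.239 TPM in ACA and ENT. Calb2, the calretinin gene, stood at 285 TPM in FRP replicate 3, above the 71.3 and 48.8 TPM of the other FRP libraries. Th, the rate-limiting enzyme of dopamine synthesis, stood at 17.0, 14.8 and 54.03 TPM in the FRP libraries and at 0.621 to 3.77 TPM in ACA and ENT.

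**Figure D1:**
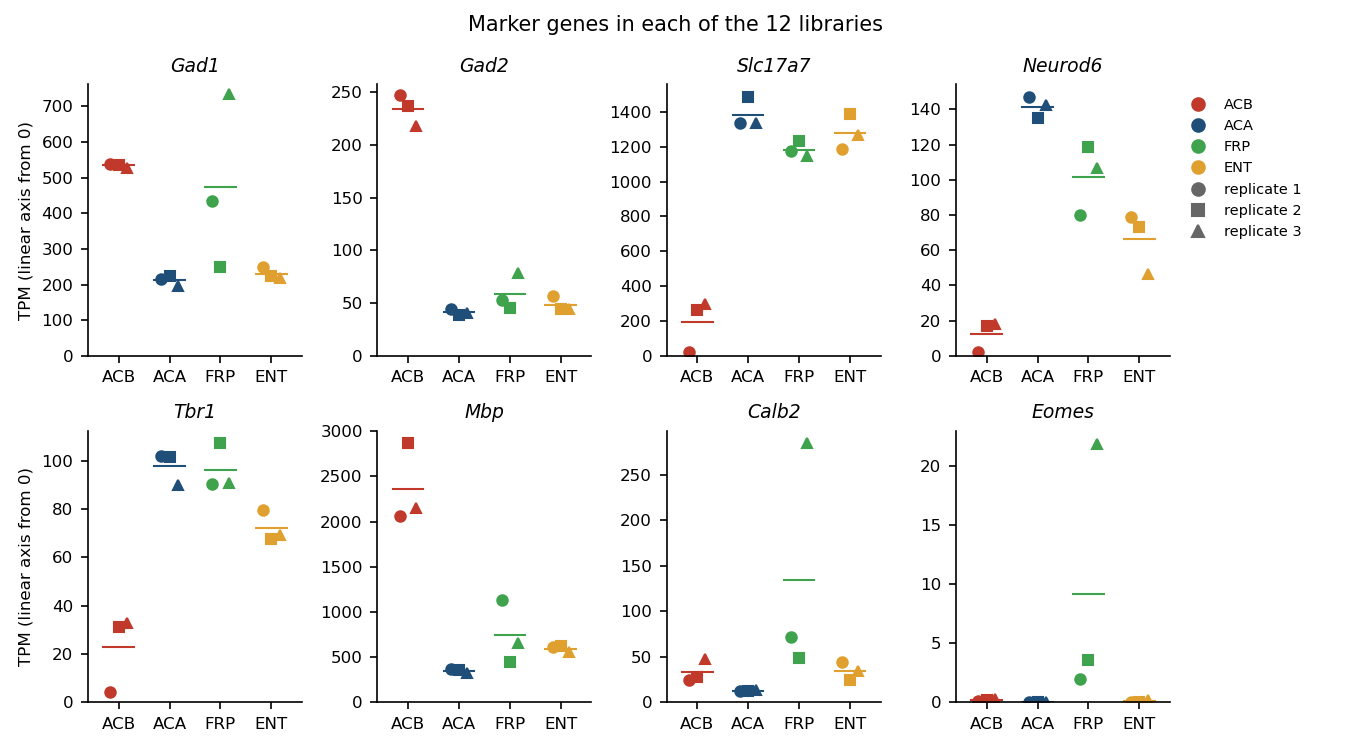
TPM of 8 marker genes in the 12 libraries on linear axes from 0, with 1 point per library (the shape gives the replicate number) and a line at the mean of each region. Slc17a7, Neurod6 and Tbr1 are lowest in ACB replicate 1, Gad1 of FRP replicate 3 lies above all ACB libraries, and Eomes and Calb2 peak in FRP replicate 3.

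Slc17a7, Gad2 and Slc32a1 separated the ACB libraries from the cortical ones, and Gad1 did not. Slc17a7 (ENSMUSG00000070570, chr7:45163949-45176142, plus strand of GRCm38) was lower in all 3 ACB libraries than in the 9 cortical libraries, which lay between 1144 and 1484 TPM with a median of 1268. Its log2 difference was -3.37 ± 0.57 (SE; limma, adjusted p = 0.000724). It was -2.19 without ACB replicate 1 and -5.71 with that library as the only one from ACB. Gad1 (chr2:70553072-70602014, plus strand), which encodes the main GABA-synthesizing enzyme, was at 539, 536 and 527 TPM in ACB. The cortical libraries ranged from 196 to 734 TPM with a median of 225, so the groups overlapped, through FRP replicate 3 alone. The log2 difference of 0.95 ± 0.22 (limma, adjusted p = 0.00597) missed the threshold of 1, and it was 1.27 with ACA and ENT as the reference. Against FRP alone it was 0.31 (limma, adjusted p = 0.461). Gad2, the second GABA-synthesizing enzyme, was at 247, 237 and 218 TPM in ACB and at 39.3 to 78.6 TPM in cortex, a log2 difference of 2.25 ± 0.14 (limma, adjusted p = 4.6e-07). Slc32a1, the vesicular GABA transporter, was also higher in every ACB library, by 1.92 on the log2 scale. Of the 6 genes listed for GABA synthesis and transport, 3 were called higher and 0 lower, the third being Abat, which breaks GABA down, with 1.42. Every ACB library was above every cortical one for 4 of the 6, against 15.8% of all genes tested.

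Of 15877 genes with at least 1 TPM in at least 3 of the 12 libraries, 835 (5.26%) were higher in ACB and 680 (4.28%) were lower. A gene counted as higher or lower here, and is named as called, where its adjusted p was below 0.05 and its log2 difference was beyond 1 in either direction. Counts called in gene lists are to be read against these shares of 5.26% and 4.28%. The median log2 difference of all genes tested was 0.11, and the medians of gene lists below are to be read against it. With libraries scaled by median of ratios instead, that median was 0.01, and 702 genes were called higher and 806 lower. Every ACB library was above every cortical library for 15.8% of the genes tested and below for 9.18%, and 4.43% were called higher and lay above every cortical library. ACB replicate 1 was the lowest of the ACB libraries for 62.6% of the genes called lower and for 35.6% of all genes tested. Among the genes called higher, it was the highest ACB library for 440 of the 835, against 6038 of the 15877 genes tested. Without ACB replicate 1, 711 of the 835 and 579 of the 680 genes were still called, and 4.91% and 3.95% of all genes tested were called higher and lower. With ACB replicate 1 as the only ACB library, 637 and 569 of them were called, and the shares of all genes were 5.15% and 4.71%. Against ACA alone the shares called higher and lower were 6.51% and 5.31%, against FRP alone 4.42% and 4.58%, and against ENT alone 6.07% and 3.96%. edgeR on the estimated counts gave 5.85% and 6.05% of 15868 genes. DESeq2 was run without the TPM filter and called 961 genes higher and 1016 lower, or 3.82% and 4.04% of 25149 genes.

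The 10 largest differences upward, among called genes with no overlap between the groups and a mean of at least 5 TPM in ACB or cortex, came mostly from known spiny neuron genes. Serpina9 (chr12:103994743-104013755, minus strand), which encodes a serine protease inhibitor of the serpin family, headed them. It was at 71.2, 77.2 and 65.3 TPM in ACB and at 0.103 to 0.343 TPM in cortex, a log2 difference of 6.66 ± 0.16 (limma, adjusted p = 5.1e-10). Six3, a homeobox factor needed by developing indirect-pathway neurons, followed with 55.1, 56.03 and 48.0 TPM against at most 0.259 TPM in cortex and a log2 difference of 6.54 ± 0.17. The other members of the top 10 were Drd2, Adora2a, Gpr6, Rgs9, Isl1, Cd4, Penk and Ppp1r1b. Cd4, best known as a co-receptor of T cells, was at 36.3, 29.5 and 21.4 TPM in ACB and at 0.168 to 0.715 TPM in cortex, with a log2 difference of 5.00 ± 0.22.

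Most listed genes of spiny neuron signalling were higher in ACB. The gene lists were chosen with earlier results of these data known, so their counts are descriptions and not tests. Of 16 genes listed, 15 were called higher and 0 lower, against 5.26% and 4.28% of all genes tested. For each of the 15, every ACB library was above every cortical one. Of all genes tested, 4.43% were called higher in this way. The median log2 difference of the list was 2.85, against 0.11 for all genes tested. ACB replicate 1 was the highest ACB library for 15 of the 16. Ppp1r1b, which encodes DARPP-32, the phosphatase inhibitor through which dopamine acts on spiny neurons, was at 1722, 1637 and 1298 TPM in ACB. The cortical libraries ranged from 38.4 to 92.5 TPM with a median of 51.9. The groups lay far apart, with a log2 difference of 4.80 ± 0.14 (limma, adjusted p = 1.9e-09). Rgs9, which speeds the deactivation of G proteins coupled to dopamine and opioid receptors, was at 323, 305 and 245 TPM in ACB and at 6.26 to 9.79 TPM in cortex, and its log2 difference was 5.21 ± 0.14. Scn4b, a beta subunit of sodium channels, was at 338, 300 and 221 TPM in ACB. It showed that the cortical regions were not alike, with a mean of 20.7 TPM in ACA, 23.7 in FRP and 2.80 in ENT. Its log2 difference was 3.74 against ACA, 3.59 against FRP and 6.45 against ENT. Itpr1, the calcium channel of the endoplasmic reticulum, was the member not called. It was at 310, 305 and 239 TPM in ACB and at 74.3 to 321 TPM in cortex, overlapping ACA and FRP, with a log2 difference of 0.55 ± 0.16.

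The dopamine receptors of both pathways were among the most distinct genes. Drd1 (chr13:54051183-54055705, minus strand) was at 157, 141 and 119 TPM in ACB. In cortex it ranged from 3.59 to 9.93 TPM with a median of 4.33, highest in ENT with a mean of 9.24 TPM. The groups did not overlap, and the log2 difference was 4.60 ± 0.11 (limma, adjusted p = 5.1e-10). Drd2 (chr9:49340627-49408177, plus strand) was at 159, 155 and 122 TPM in ACB and at 0.344 to 3.20 TPM in cortex, with a log2 difference of 6.44 ± 0.21 (limma, adjusted p = 3.09e-09). Levels of both receptors in ACB lay close together, while in each cortical region Drd2 was below Drd1. Drd3, a receptor concentrated in the ventral striatum, was at 8.12, 6.98 and 5.66 TPM in ACB and was listed at 0 in 8 of the 9 cortical libraries. Its log2 difference was 3.83 with a pseudocount of 0.5 TPM, 5.97 with 0.1 and 2.95 with 1. Of the 10 dopamine genes tested, 5 were called higher and 0 lower, the others being Ddc (1.90), which completes dopamine synthesis, and Th (1.34). Th was at 10.4, 16.1 and 8.51 TPM in ACB and overlapped the FRP libraries, and against FRP alone its log2 difference was -1.06.

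Among 9 genes listed for direct-pathway neurons, 7 were called higher and 0 lower, with a median log2 difference of 4.00. Tac1, the precursor of substance P, was at 454, 660 and 484 TPM in ACB against 13.8 to 32.2 TPM in cortex, and its log2 difference was 4.32 ± 0.20. Pdyn, the precursor of dynorphins, was at 200, 284 and 201 TPM in ACB. Its cortical means were 24.1 TPM in ACA, 17.4 in FRP and 5.98 in ENT, so that the log2 difference ran from 3.20 against ACA to 5.13 against ENT. Isl1, a LIM homeobox factor of direct-pathway and cholinergic neurons, was at 20.95, 20.4 and 19.6 TPM in ACB and at most 0.751 TPM in cortex. Slc35d3 (log2 difference 4.60), Ebf1 (1.93) and the muscarinic receptor gene Chrm4 (1.42) were also higher, Ebf1 with overlap in FRP replicate 3. Against FRP alone, the 1.09 of Ebf1 was not called (limma, adjusted p = 0.0745), and 6 genes of the list were. The values of the remaining members were 0.29 for Sfxn1 and -0.05 for Eya1, neither of which was called.

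All 5 measured genes of the indirect-pathway list were called higher, with a median log2 difference of 5.38. Adora2a was at 236, 193 and 182 TPM in ACB against 0.966 to 3.70 TPM in cortex, a log2 difference of 6.34 ± 0.27. Penk (chr4:4133531-4138819, minus strand), the precursor of enkephalins, was the most abundant of these transcripts, with 2010, 2193 and 1540 TPM in ACB. Cortical libraries spread widely, from 24.1 TPM in ACA to 165 TPM in ENT, and remained below every ACB library. The log2 difference of Penk was 4.99 ± 0.33 (limma, adjusted p = 5.63e-07), with 6.14 against ACA, 4.63 against FRP and 4.21 against ENT. Gpr6, a constitutively active receptor of indirect-pathway neurons, was at 82.8, 92.9 and 67.7 TPM in ACB and at 0.578 to 3.35 TPM in cortex, a log2 difference of 5.38 ± 0.18. Sp9, a zinc-finger factor, was at 12.3, 9.82 and 10.2 TPM in ACB and reached 11.3 TPM in FRP replicate 1, so the groups overlapped, and its log2 difference was 1.91 ± 0.39. With ACB replicate 1 as the only ACB library, the 2.10 of Sp9 was not called (limma, adjusted p = 0.0647). Nor was its 0.74 against FRP alone (limma, adjusted p = 0.304), where 4 of the 5 genes were called.

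The 5 genes listed for the ventral striatum were all called higher, with a median log2 difference of 3.83. Cartpt, the precursor of the peptides CART, was at 67.4, 163 and 138 TPM in ACB and at 2.55 to 11.8 TPM in cortex, so that ACB replicate 1 was below the other two. Its log2 difference was 4.10 ± 0.26 (limma, adjusted p = 4.93e-07), 4.48 without ACB replicate 1 and 3.33 with it alone. Nts, the precursor of neurotensin, was at 25.1, 31.6 and 35.3 TPM in ACB, and its difference was 5.33 against ACA, 4.63 against FRP and 1.25 against ENT, where its mean was 12.5 TPM. Dlk1, a non-canonical Notch ligand, had a log2 difference of 4.48, with 2.58 against ENT alone. Its values equalled those of the annotated gene AC165954.1 in all 12 libraries, so the 2 cannot be told apart. Wfs1, an endoplasmic reticulum protein, was higher by 1.62 on the log2 scale.

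**Figure D2:**
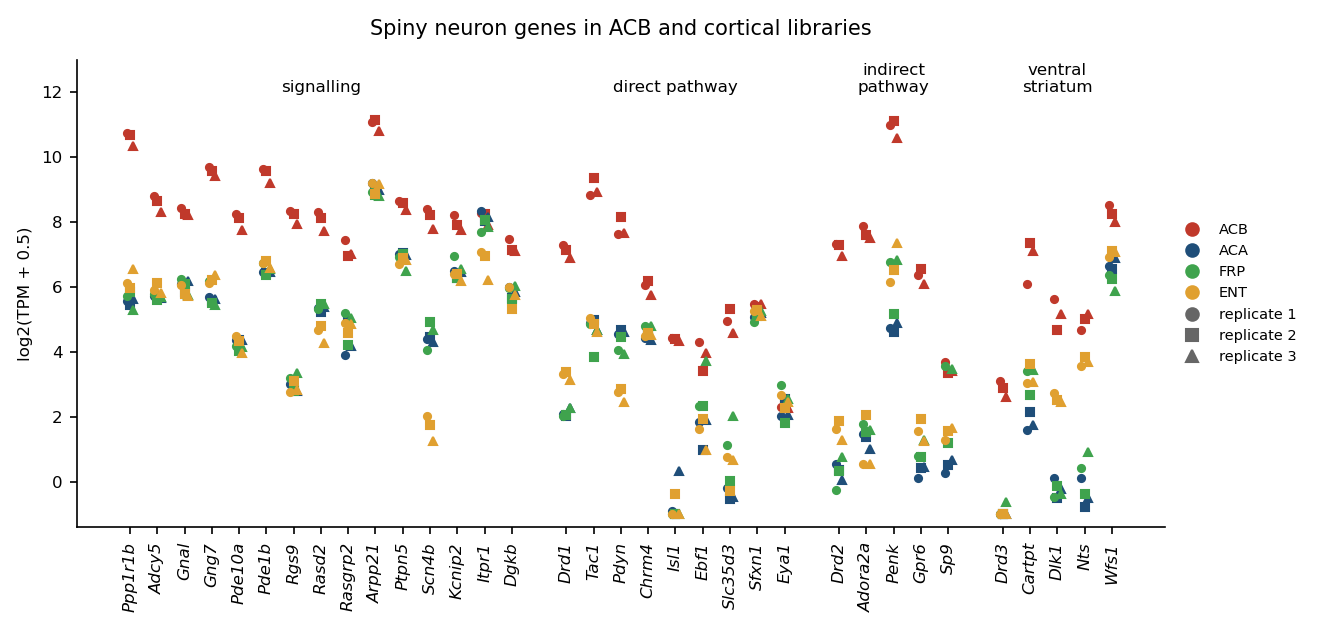
log2(TPM + 0.5) of the measured genes of the 4 spiny neuron lists, less 1 not reported here, in the 12 libraries, with 1 point per library, the colour giving the region and the shape the replicate number. ACB points lie above all cortical points for 30 of the 34 genes shown, and Itpr1, Ebf1, Eya1 and Sp9 overlap.

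The promoters of these genes are shown where they hold the palindromic cAMP response element TGACGTCA, the binding sequence of CREB, since dopamine and adenosine receptors of spiny neurons act on cAMP. Of 36 genes on the 4 spiny neuron lists, 28 had a promoter of 300 bases (250 before to 50 after the gene start) in the RefSeq table of GRCm38.p6. The 8 bases were found in 2 of the 28 (7.14%), in 3.48% of 11059 tested genes with a promoter and in 1.79% of all 32851 promoters in the table. The 2 genes were Gpr6 (chr10:41072241-41072540, minus strand) and Cartpt (chr13:99900634-99900933, minus strand). In the lines below the element is in capitals, starting 78 bases before the start of Gpr6 and 112 bases before that of Cartpt.
Gpr6: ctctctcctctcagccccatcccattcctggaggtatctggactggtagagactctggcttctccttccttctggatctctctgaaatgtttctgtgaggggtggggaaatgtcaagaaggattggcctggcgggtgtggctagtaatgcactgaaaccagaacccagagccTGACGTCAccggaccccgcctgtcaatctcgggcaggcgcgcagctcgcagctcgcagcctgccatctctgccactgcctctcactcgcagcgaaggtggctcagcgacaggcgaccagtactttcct
Cartpt: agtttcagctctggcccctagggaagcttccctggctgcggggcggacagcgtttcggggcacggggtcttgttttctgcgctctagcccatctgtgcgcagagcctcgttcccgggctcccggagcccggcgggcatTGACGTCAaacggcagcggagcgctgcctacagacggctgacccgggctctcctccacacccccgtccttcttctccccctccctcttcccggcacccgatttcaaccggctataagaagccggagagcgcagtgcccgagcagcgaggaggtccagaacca
A match says only that these letters stand in the window.

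Components of cAMP signalling differed between ACB and cortex gene by gene. Of 20 adenylyl cyclases and phosphodiesterases, 8 (40%) were called higher and 3 (15%) lower, against 5.26% and 4.28% of all genes tested. The median log2 difference of the list was 0.38. Adcy5, the main adenylyl cyclase of the striatum, was at 441, 399 and 319 TPM in ACB and at 48.1 to 69.6 TPM in cortex, a log2 difference of 2.80 ± 0.10 (limma, adjusted p = 5.51e-09). Adcy1, a calcium-activated cyclase, went the other way, with 34.5, 46.2 and 44.0 TPM in ACB against 84.4 to 181 TPM in cortex and a log2 difference of -1.66 ± 0.13. Adcy8 and Adcy2 were also lower, by 1.44 and 1.24 on the log2 scale. The phosphodiesterases called with the largest differences were Pde10a (3.79), Pde7b (3.16), Pde1c (3.02) and Pde1b (2.89), all higher. Pde10a, which breaks down cAMP and cGMP, was at 302, 276 and 216 TPM in ACB and between 15.3 and 22.0 TPM in cortex. Pde2a, at 338, 340 and 333 TPM in ACB, had a log2 difference of 0.48 and was not called. Among 24 RGS proteins and G protein subunits, 7 (29.2%) were called higher and 2 (8.33%) lower. The count called lower was 1 without ACB replicate 2, without FRP replicate 3 or without ENT replicate 3. Gnal, the stimulatory alpha subunit of striatal and olfactory neurons, was higher by 2.31 ± 0.12, while Gnas, its counterpart in most other cells, was at 626, 646 and 840 TPM in ACB against 1114 to 1759 TPM in cortex, with a log2 difference of -0.90 that was not called. The gamma subunits split likewise. Gng7 was at 833, 762 and 683 TPM in ACB and at 42.7 to 81.4 TPM in cortex (log2 difference 3.71 ± 0.14), and Gng2 was lower by 1.28 on the log2 scale.

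Transcription factors of the subpallium, from which the striatum develops, and of the pallium, from which cortex develops, differed in opposite directions. Of 18 subpallial factors tested (Gsx2 fell below the filter), 13 were called higher and 0 lower, with a median log2 difference of 1.92. Against FRP alone the median was 0.98. Every ACB library was above every cortical one for 9 of the 18, against 15.8% of all genes tested. Besides Six3 and Isl1, the largest were Rarb, a retinoic acid receptor, with 4.46 ± 0.15 and 123, 128 and 90.1 TPM in ACB, and Zfp503 with 3.20 ± 0.21. Meis2, a homeobox gene of the striatum, was at 637, 672 and 621 TPM in ACB and at 83.7 to 480 TPM in cortex, the upper end in FRP, and its log2 difference was 1.79. Against FRP alone the difference of Meis2 was 0.86, and 8 of the subpallial factors were called higher in that comparison with 1 lower, against 13 and 12 higher with ACA or ENT alone. Dlx1, a factor of GABAergic neurons, was at 24.0, 49.1 and 52.2 TPM in ACB and up to 129 TPM in FRP, with a log2 difference of -0.15 that was not called. Of 22 pallial factors, 14 were called lower and 1 higher, and the median log2 difference was -1.42. Neurod6 (-3.38), Emx1 (-3.34), Bhlhe22 (-3.32) and Neurod1 (-3.20) led the list.

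Neurod6 illustrates the spread among the pallial factors. Against its 2.06, 17.0 and 18.2 TPM in ACB, it was at 46.7 to 147 TPM in cortex, lowest in ENT. Its log2 difference was -3.38 ± 0.48 (limma, adjusted p = 0.000191), and it changed to -2.44 without ACB replicate 1 and to -5.25 with that library alone. Tbr1 moved between -1.44 and -4.19 in the same way. Of the 22 pallial factors, 13 were called lower without ACB replicate 1, against 14 with all libraries. The exception among the pallial factors was Tle4, which marks layer 6 of cortex. It was at 55.1, 54.8 and 54.5 TPM in ACB and at 12.7 to 38.9 TPM in cortex, higher by 1.43 ± 0.22 on the log2 scale, and the 0.91 against ENT alone was not called. Foxp2, a further layer 6 gene also used by spiny neurons, was at 43.5, 42.2 and 40.4 TPM in ACB and at 3.10 to 10.9 TPM in cortex, a difference of 2.62 ± 0.29. Cortical layer markers as a list were split, with 4 of 16 called higher and 5 lower and a median of 0.11. That median was 0.27 without ACB replicate 1, -0.11 without ACB replicate 3, -0.65 against ENT alone and -0.69 with ACB replicate 1 alone. Fezf2, a factor of layer 5 neurons, was lower by 3.09 on the log2 scale.

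Of 6 genes of glutamatergic transmission, 4 were called lower and 0 higher. Slc30a3 (chr5:31086106-31108237, minus strand), the transporter that loads zinc into glutamatergic vesicles, had the largest downward difference by the same rule. It was at 0.445, 5.40 and 7.01 TPM in ACB and at 62.1 to 137 TPM in cortex, a log2 difference of -4.92 ± 0.50 (limma, adjusted p = 1.59e-05), of -3.98 without ACB replicate 1 and of -6.80 with it alone. Nrgn, a calmodulin-binding protein of dendrites, was lower by 1.88. Camk2a, the kinase abundant at excitatory synapses, was at 768, 728 and 753 TPM in ACB, below every cortical library (1094 to 1734 TPM), and its log2 difference of -0.89 stayed inside the threshold. The count of the list depended on the method. edgeR and DESeq2 each called all 6 genes lower, limma with median-of-ratios scaling called 5, and limma with a pseudocount of 1 TPM called 3.

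The rest of the 10 largest downward differences belonged to Nrn1, Adra1d, Adcyap1, Hkdc1, Rtn4rl2, Grp, Myl4, Rtn4r and Cpne9. Nrn1 encodes neuritin, a protein that promotes neurite growth. It was at 3.63, 30.6 and 31.5 TPM in ACB and at 245 to 541 TPM in cortex, with a log2 difference of -4.55 ± 0.48. It was -3.57 without ACB replicate 1 and -6.50 with it alone. The step between ACB replicate 1 and the others, seen in Nrn1, Slc30a3 and Rtn4rl2, was absent in Adra1d, an alpha-1 adrenergic receptor gene, with 0.803, 0.891 and 1.08 TPM in ACB against 8.43 to 49.0 TPM in cortex. The log2 difference of Adra1d was -4.37 ± 0.25 (limma, adjusted p = 2.08e-07). Rtn4r and Rtn4rl2 encode receptors for the growth inhibitor Nogo and its relatives, and their log2 differences were -3.70 and -3.91. Without ACB replicate 1 the difference of Rtn4rl2 was -2.94, and with it alone -5.85. Myl4, a myosin light chain, and Cpne9, a calcium-dependent membrane binding protein, were low in ENT too. Their means there were 11.4 and 5.32 TPM, against 124 and 63.2 TPM in ACA, and the log2 differences of ACB from ENT alone were -1.52 and -1.38.

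Of 8 opioid peptide and receptor genes, 4 were called higher in ACB and 0 lower, namely Penk, Pdyn and the receptor genes Oprk1 and Oprm1, with a median log2 difference of 1.42. Oprk1, the receptor for dynorphins, was at 25.9, 28.1 and 19.8 TPM in ACB against 0.596 to 2.66 TPM in cortex, with a difference of 3.55 ± 0.27 (limma, adjusted p = 1.95e-06). Oprm1, the receptor for morphine and enkephalins, was at 18.4, 13.9 and 9.76 TPM in ACB. It varied between 0.921 and 5.14 TPM in cortex, and the difference was 2.36 ± 0.42 (limma, adjusted p = 0.00107). The delta receptor gene Oprd1 was at 12.5, 11.8 and 7.60 TPM in ACB within a cortical range of 4.24 to 16.0 TPM, a log2 difference of -0.01 ± 0.18. Oprl1, the nociceptin receptor gene, had a difference of -0.22 and its peptide gene Pnoc one of -0.72, and neither was called.

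The other neuropeptides divided between the tissues, with 4 of 12 tested genes (33.3%) called higher and 4 (33.3%) lower. Tac1, Cartpt and Nts were the higher ones described above, together with Trh, the precursor of thyrotropin-releasing hormone, whose groups overlapped and whose difference was 1.24 over the 3 regions but -0.24 against FRP alone. Trh was not called without ACB replicate 1 (1.15), without ACB replicate 2 (1.18) or without ACB replicate 3 (1.39). Adcyap1 (chr17:93199017-93206537, plus strand), the precursor of the peptide PACAP, was at 0.482, 0.703 and 0.728 TPM in ACB. The cortical means were 45.7 TPM in ACA, 34.3 in FRP and 6.58 in ENT, and the log2 difference was -4.30 ± 0.13 (limma, adjusted p = 1.9e-09). Grp, the precursor of gastrin-releasing peptide, was below 1 TPM in all ACB libraries and at 7.69 to 32.5 TPM in cortex, a difference of -3.89 ± 0.25. Cck, the cholecystokinin gene and the most abundant of these in cortex, was at 21.01, 203 and 214 TPM in ACB and at 713 to 1844 TPM in cortex. Its difference was -3.50 ± 0.54, -2.40 without ACB replicate 1 and -5.68 with it alone. Sst, the somatostatin gene, was at 531, 714 and 684 TPM in ACB and at 454 to 1166 TPM in cortex, and Npy at 220, 268 and 262 TPM in ACB against 213 to 344 TPM. Their differences of -0.14 and -0.19 were not called.

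Peptide receptors beyond the opioid ones were split as well, with 5 of 18 tested (27.8%) called higher and 6 (33.3%) lower. Tacr1, the receptor for substance P, was at 11.3, 8.70 and 7.91 TPM in ACB and at 0.547 to 4.19 TPM in cortex, a log2 difference of 2.36. Npy2r (2.05), the melanocortin receptor gene Mc3r (1.97) and Tacr3 (1.84) were higher too, at no more than 16.4 TPM. Tacr3 had a difference of only 0.64 against ENT. Lower in ACB were the somatostatin receptor genes Sstr3 (-2.65, and -2.10 without ACB replicate 1) and Sstr1 (-1.41), the cholecystokinin receptor gene Cckbr (-1.98) and the receptor gene for corticotropin-releasing hormone, Crhr1 (-1.91). Cckbr was at 10.5, 13.8 and 15.3 TPM in ACB and at 34.1 to 74.1 TPM in cortex. Adcyap1r1, the receptor gene for PACAP, had a difference of 0.32 and was not called.

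**Figure D3:**
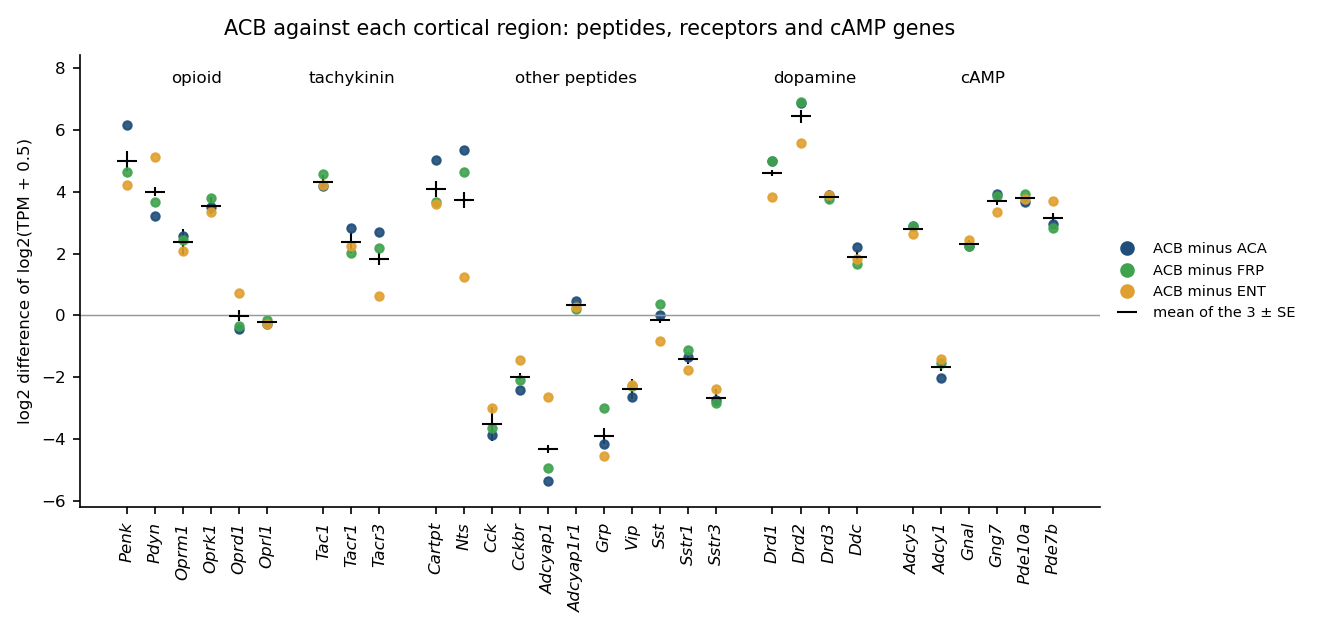
Log2 difference of log2(TPM + 0.5) between ACB and each cortical region (points) for peptide, receptor, dopamine and cAMP genes, with the mean over the 3 regions and its SE in black. The 3 comparisons share the ACB libraries. Among the 3 points of a gene, the one against ENT is nearest 0 for Nts (1.25) and Adcyap1 (-2.64). For Penk, the one against ACA is highest (6.14).

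Of 22 receptors for acetylcholine, serotonin and adenosine, 7 (31.8%) were called higher and 3 (13.6%) lower, with a median log2 difference of -0.09. The count called lower was 6 without ACB replicate 2 and 5 without ACB replicate 3. Htr2c, a serotonin receptor gene linked to feeding, was at 64.9, 58.8 and 63.0 TPM in ACB and at 8.73 to 32.2 TPM in cortex, a difference of 2.00 ± 0.22 (limma, adjusted p = 2.86e-05). Htr1d (3.09) and Htr1b (2.02) were also higher, and Htr1a (-1.18) and Htr5a (-1.10) were lower. Among the muscarinic receptors, Chrm4 was higher by 1.42, Chrm3 was lower by 2.01 on the log2 scale, and Chrm1, at 98.5, 99.1 and 95.9 TPM in ACB, differed by -0.20 and was not called.

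Glutamate and GABA receptors differed gene by gene. Of 21 glutamate receptors, 2 (9.52%) were called higher and 2 lower, against 5.26% and 4.28% of all genes tested. Grm2, a presynaptic metabotropic receptor gene, was at 3.85, 3.21 and 4.94 TPM in ACB and at 21.7 to 87.6 TPM in cortex, lower by 3.51 on the log2 scale, and Grm8 was lower by 2.33. The kainate receptor gene Grik2 was higher by 1.53 and Grm4 by 1.52. The abundant subunits Gria2 (0.15), Grin1 (-0.34) and Gria1 (0.49) were not called. Of 14 GABA receptors, 2 (14.3%) were called higher and 3 (21.4%) lower. Gabrd, the delta subunit of extrasynaptic receptors, was at 114, 93.9 and 87.5 TPM in ACB and at 16.2 to 58.3 TPM in cortex, lowest in ENT, and its log2 difference was 1.49 ± 0.11. Gabbr2, a subunit that GABA-B receptors need to signal, was at 48.2, 54.1 and 59.4 TPM in ACB and at 152 to 232 TPM in cortex, with a difference of -1.75 ± 0.08 (limma, adjusted p = 3.18e-08). Its partner Gabbr1, at 577, 537 and 538 TPM in ACB, had a difference of 0.13 and was not called. The subunit gene Gabra3 was also lower (-1.52).

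Ion channel genes moved in both directions, with 8 of 32 (25%) called higher and 6 (18.8%) lower and a median of 0.13. Against ENT alone, 13 were called higher, where 6.07% of all genes tested were. Kcna5, a voltage-gated potassium channel gene, was at 34.9, 41.6 and 25.5 TPM in ACB and at 1.02 to 5.60 TPM in cortex, a log2 difference of 3.34 ± 0.21 (limma, adjusted p = 4.15e-07). Kcnj2, an inward rectifier known from spiny neurons, was higher by 1.88. The G protein-gated inward rectifiers Kcnj3 (-2.11), Kcnj6 (-1.97) and Kcnj9 (-1.66) were all lower. Kcnj3 was at 10.96, 15.9 and 18.9 TPM in ACB and at 55.7 to 79.2 TPM in cortex.

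Of 15 retinoic acid pathway genes, 5 (33.3%) were called higher and 2 (13.3%) lower. Rarb, Crabp1 (3.13), the retinol uptake receptor gene Stra6 (2.86) and the receptor gene Rxrg (2.79) led the higher ones. Rxrg was at 79.1, 115 and 87.1 TPM in ACB and at 7.64 to 18.3 TPM in cortex. Cyp26b1, which degrades retinoic acid, was at 1.78, 1.13 and 1.14 TPM in ACB and at 6.01 to 17.1 TPM in cortex, lower by 2.46 on the log2 scale. The synthesizing enzyme gene Aldh1a2 (-1.51) was called lower with overlap between the groups, and it was not called without ACB replicate 1 (-1.48) or without ACB replicate 2 (-1.44). Of 7 endocannabinoid genes, 3 (42.9%) were called lower and 0 higher. Cnr1, the receptor for cannabinoids, was at 25.5, 33.99 and 38.6 TPM in ACB and at 53.9 to 94.5 TPM in cortex, a difference of -1.26 ± 0.15, and the degrading enzyme gene Faah had one of -1.79 ± 0.13.

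All 7 genes of cholinergic interneurons were called higher, with a median log2 difference of 3.33. Every ACB library was above every cortical one for 6 of the 7, against 15.8% of all genes tested. Against ACA alone or ENT alone, 6 were called. The TPM summed over the 7 genes ranged from 70.4 to 145.5 in ACB and from 3.00 to 68.2 in cortex, where it was highest in ENT replicate 3. Chat, which makes acetylcholine, was at 11.9, 9.21 and 8.63 TPM in ACB and at most 0.331 TPM in cortex, with 0 listed in every ENT library, and its difference was 4.04 ± 0.21 (limma, adjusted p = 1.25e-07). Lhx8, a LIM homeobox factor of these neurons, was at 20.3, 4.97 and 11.1 TPM in ACB. ACB replicate 1 was the highest ACB library for all 7 cholinergic genes. Of 14 markers of GABAergic interneurons, 3 were called lower and 0 higher, with a median of -0.12. Pvalb, the marker of fast-spiking cells, was at 7.58, 7.93 and 5.92 TPM in ACB and at 18.3 to 61.0 TPM in cortex, lower by 2.46 on the log2 scale. Vip was at 2.90, 10.002 and 10.3 TPM in ACB against 22.4 to 47.8 TPM, with a log2 difference of -2.38, of -1.83 without ACB replicate 1 and of -3.49 with it alone. Cort was called lower (-1.37) with overlap and was not called without ACB replicate 1 (-0.81).

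Among cells other than neurons, oligodendrocyte genes stood out. All 8 were called higher with no overlap, against 4.43% of all genes tested, and their median log2 difference was 2.28. Mbp, a major myelin protein gene, was at 2061, 2874 and 2156 TPM in ACB and at 322 to 1136 TPM in cortex, highest in FRP replicate 1. The TPM summed over the 8 genes ranged from 4513 to 5694 in ACB and from 670.6 to 2235 in cortex. The part of this in the other differences was not tested. Of the 5 genes of oligodendrocyte precursors, 8 of astrocytes, 7 of microglia and 9 of endothelial and mural cells, 0 were called in either direction, with list medians of 0.53, -0.06, 0.16 and 0.19. At an unadjusted p under 0.05, limma had 4 of the precursor, 3 of the astrocyte, 1 of the microglial and 1 of the endothelial and mural genes, and edgeR and DESeq2 called 0 in each of these lists. Neuroblasts and dividing cells had 5 of 7 genes called higher, with summed TPM of 39.6, 73.8 and 84.0 in ACB replicates 1, 2 and 3 and of 16.2 to 76.9 in cortex. The number called was 6 without ACB replicate 1, 3 without ACB replicate 2 or 3, and 0 with ACB replicate 1 alone, where Top2a had a log2 difference of 0.94. Of 6 genes tested for ependyma and choroid plexus, 3 were called higher, and Folr1, a choroid plexus gene, was listed at 0 in every ACB library. Summed over all 8 measured genes of that list, tested or not, TPM was 23.7, 20.99 and 46.5 in ACB and 7.43 to 22.4 in cortex. Without ACB replicate 3, 1 gene was called higher and 1 lower. Of 16 immediate early genes, 1 (6.25%) was called lower and 0 higher, and 4.28% of all genes tested were called lower. The gene was Ier2 (-1.32), whose groups overlapped, and without ACB replicate 1 none was called by limma. Of 5 red blood cell genes, 0 were called by limma, edgeR or DESeq2, with 1 at an unadjusted p under 0.05.

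**Figure D4:**
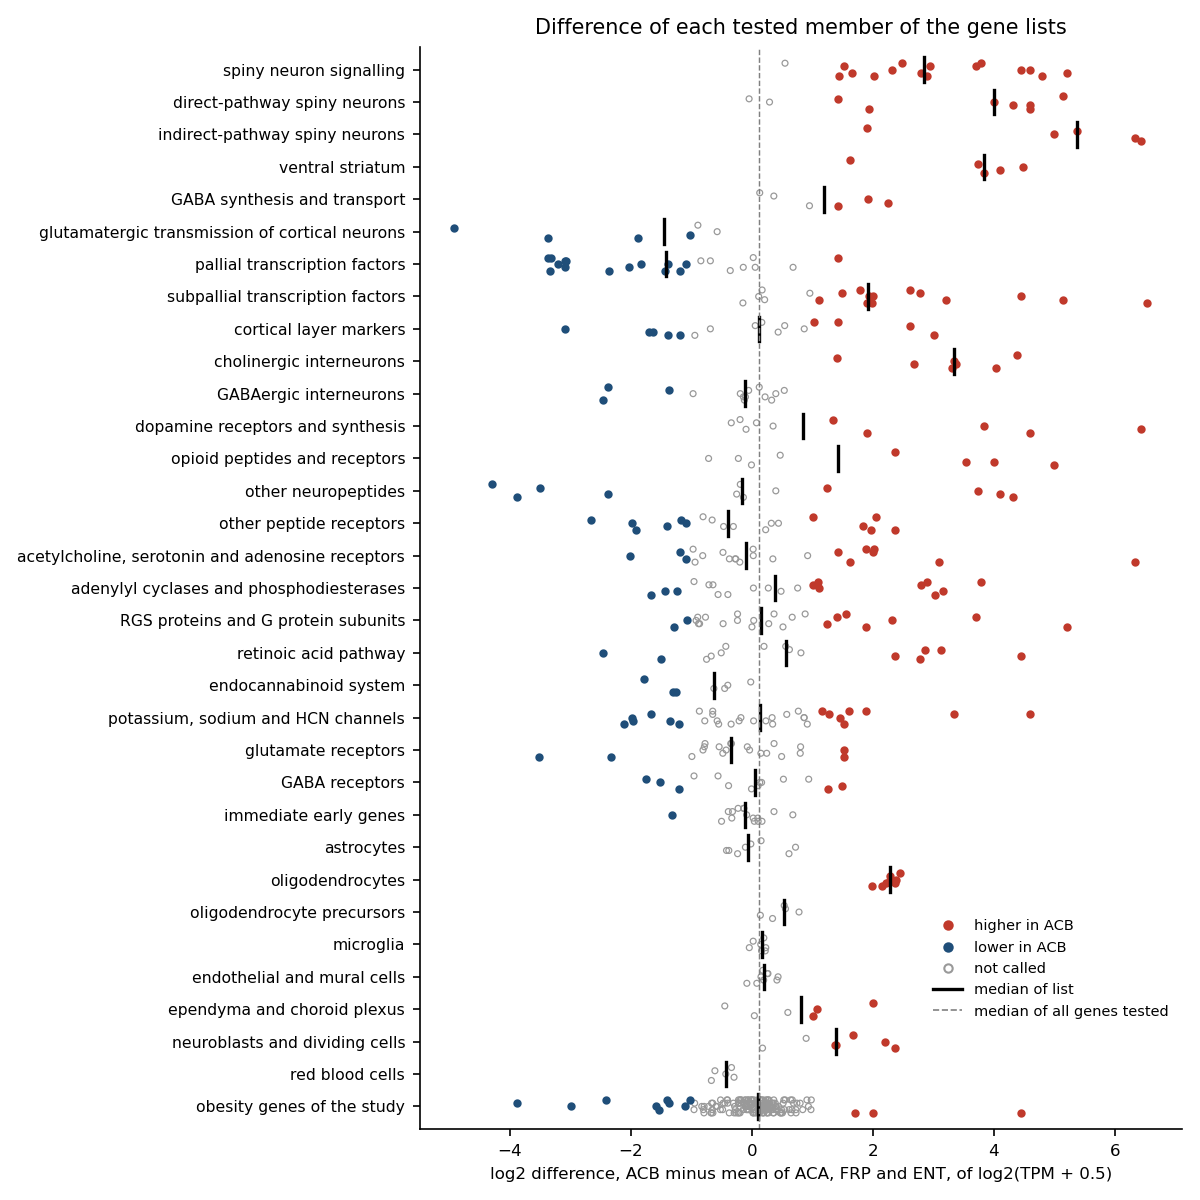
Log2 difference (ACB minus the mean of ACA, FRP and ENT) of every tested member of the gene lists, with called genes in red (higher) and blue (lower), other genes as open circles, the list's median as a black bar and the median of all genes (0.11) as a dashed line. Spiny neuron, cholinergic and oligodendrocyte lists lie to the right, pallial and glutamatergic lists to the left.

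The study compiled a list of 190 genes linked to obesity. Of these, 175 passed the filter, and 3 (1.71%) were called higher and 9 (5.14%) lower in ACB, against 5.26% and 4.28% of all genes tested. The median log2 difference of the list was 0.11, as for all genes. The number called higher was 10 against ACA alone, where 6.51% of all genes were called, and 6 against ENT alone, with a pseudocount of 0.1 TPM or without ACB replicate 3. It was 5 without ENT replicate 2, and edgeR and DESeq2 called 15 and 14 lower. The 3 higher genes were Rarb, Zfhx3, a transcription factor (12.1, 7.58 and 7.82 TPM in ACB, 1.48 to 2.30 TPM in cortex, difference 2.00 ± 0.18), and Hhip, an inhibitor of hedgehog ligands (1.71). The largest of the lower ones were Grp, Bdnf, Doc2a and Cbln1. Bdnf, the brain-derived neurotrophic factor, was at 0.326, 2.20 and 2.47 TPM in ACB and at 6.93 to 24.5 TPM in cortex, with a difference of -3.00 ± 0.33 (limma, adjusted p = 2.69e-05) that was -2.40 without ACB replicate 1 and -4.18 with it alone. Doc2a, a calcium sensor of synaptic release, was lower by 2.40 on the log2 scale.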

How the data were processed

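RNA-seq libraries of ACB, ACA, FRP and ENT were compared. Per the labels and the submitters' processing notes, the authors used CASAVA 1.8.2 and kallisto with GRCm38. GENCODE mouse release 21 was used here to assign transcripts to genes and for coordinates. The authors deposited gene-level TPM and, per transcript, estimated counts. TPM is relative to each library's total, so a few abundant transcripts can shift the rest. Of 109282 transcripts, 107899 (98.7%) matched a gene, and the estimated counts of a gene's transcripts were added up and rounded to whole numbers for the count models.

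Genes with at least 1 TPM in at least 3 of 12 libraries were tested on log2(TPM + 0.5), computed from the deposited TPM, with limma 3.58.1 in R 4.3.3 and Benjamini-Hochberg adjustment over all genes tested. ACB was set against the equally weighted mean of ACA, FRP and ENT, two-sided. Calls required an adjusted p below 0.05 together with a log2 difference beyond 1 in either direction. Alternatives used edgeR 4.0.16 and DESeq2 1.42.0 on the counts, other pseudocounts, filters, scalings and references, and leaving out each library. The model code was tested on simulated data.

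Named genes were the markers Gad1 and Slc17a7, the members of the 4 spiny neuron lists, up to 4 called genes per direction and 3 uncalled genes of highest mean TPM from each other list, and the 10 largest non-overlapping differences per direction with a mean of at least 5 TPM. Members and lists were chosen with earlier results of these data known. A few list members are not reported here by name.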

Additional observations from a re-analysis of the deposited data

How the results depend on the processing

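With 15877 genes tested, 835 were called higher and 680 lower. Leaving out each library in turn gave 779 to 863 higher and 627 to 738 lower. edgeR called 929 higher and 960 lower, DESeq2 called 961 and 1016, and edgeR without a filter called 1113 and 1000. Other pseudocounts, filters, scalings and references gave 702 to 1034 higher and 571 to 843 lower. Among genes called in the main fit, 0 were called with the opposite sign under any of the 29 alternatives. Of 228 named genes, 181 kept their call under every alternative. Among named genes called in the main fit or in the alternative, the sign was reversed for 5. Genes called in neither were not counted, and some of them also changed sign, as Itpr1 did against ACA alone (-0.02). Against FRP alone, the log2 difference was -1.99 for Sp8, -0.06 for Rspo1, -0.24 for Trh and -1.06 for Th. Against ENT alone, it was -1.45 for Ctgf. The cause was not tested. With the replicate number as a block, 831 genes were higher and 679 lower, and the block changed no call of a named gene. Deviations of libraries with the same number correlated at -0.096 to 0.099, so the numbers were not taken to pair libraries. Using ACB replicate 1 as the only ACB library, using ACA and ENT as the reference, and running edgeR without a filter were chosen after seeing the data. With 1 ACB library, that library is assumed to vary like the other regions. Differences of genes near 0 TPM depend on the pseudocount.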
